A study of Mus musculus with 24 samples.

Results

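The type I interferon response was followed here in liver invariant natural killer T (LiNKT) cells through a list of 37 genes, given by name, out of the 55401 gene IDs of the deposited expression tables. All 37 were found in those tables by symbol. The cells came from non-obese diabetic (NOD) mice and were sorted as live lymphocytes that bound an αGalCer/CD1d tetramer, which marks T cells whose receptor sees the lipid αGalCer on CD1d. Treated mice had received intravenous nanoparticles coated with αGalCer/CD1d (αGalCer/CD1d-NPs) at 20 µg of protein per dose, 2 doses per week for 5 weeks, from 8 to 10 weeks of age. Control mice were of the same strain and are labelled untreated, although the methods of the study allow for controls given Cys-NPs. Single-cell RNA (SmartSeq2) came from 3 male mice per group aged 13 to 15 weeks, open chromatin (the ATAC arm of a 10X multiome) from 5 untreated and 4 treated male mice of the same age, and DNA methylation (whole-genome bisulfite sequencing) from 7 untreated female mice aged 17 weeks and 4 treated mice aged 16 weeks whose sex is not given. The methods of the study speak of replicates for the bisulfite sequencing, but the mice or replicates of a group cannot be separated in the files, so every assay used here holds 1 sample per group, no test between groups was possible, and the intervals below are 95% intervals that cover counting error only. SmartSeq2 reads carry no molecular identifiers and are not independent molecules.

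Type I interferons (interferon-α and -β) bind the receptor formed by IFNAR1 and IFNAR2, whose kinases TYK2 and JAK1 activate transcription factors in the cytoplasm. A complex that includes STAT2 and IRF9 then binds the interferon-stimulated response element (ISRE) of many promoters, and interferon-γ acts on the GAS element, so that many genes of the list answer to either cytokine. The products sense viral nucleic acid, block translation, degrade RNA or attack vacuoles that hold microbes, and in T cells several of them also bear on quiescence and survival.

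Many promoters of the list hold the letters of these elements. RefSeq promoter sequence (GRCm38.p6, 250 bases before to 50 bases after the start of each gene) was held for 29 of the 37 genes and not for Dhx58, Zbp1, Usp18, Oas2, Mx1, Parp9, Parp14 and Rtp4. The ISRE core TTTCNNTTTC, searched on both strands, was in 16 of the 29 (55.2%) against 3.49% of 27025 promoters of the same length, and the GAS core TTCNNNGAA was in 8 of the 29 (27.6%) against 8.47%. Both cores were in 4 of them and neither was in 9. A match of letters is a description of the sequence and not a measured binding site. The sequences here and below are those of the reference genome, and whether the NOD mice carry the same letters was not examined. The 150 bases before the transcription start site (TSS) of 4 members are printed 5′ to 3′ in the direction of transcription, with the matched bases in capitals, because they show 3 of the 4 kinds of promoter in the list (the kind with a GAS core alone, as in Irf1, Ifit2, Isg20 and Ifi35, is not printed): Isg15 (chr4:156200819-156200968, minus strand) with 3 overlapping ISRE cores, Ifit1 (chr19:34640739-34640888, plus strand) with 2 separate ones, Igtp (chr11:58199406-58199555, plus strand) with a GAS core and an ISRE core side by side, and Slfn2 (chr11:83064962-83065111, plus strand) with neither.
Isg15: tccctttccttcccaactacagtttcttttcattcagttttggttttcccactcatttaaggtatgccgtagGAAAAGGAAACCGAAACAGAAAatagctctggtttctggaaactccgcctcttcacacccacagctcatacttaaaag
Ifit1: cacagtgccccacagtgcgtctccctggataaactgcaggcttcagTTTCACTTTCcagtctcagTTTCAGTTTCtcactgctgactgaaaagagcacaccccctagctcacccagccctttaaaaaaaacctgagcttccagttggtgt
Igtp: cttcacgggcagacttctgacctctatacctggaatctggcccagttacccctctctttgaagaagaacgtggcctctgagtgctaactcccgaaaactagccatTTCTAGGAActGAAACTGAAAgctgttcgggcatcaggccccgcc
Slfn2: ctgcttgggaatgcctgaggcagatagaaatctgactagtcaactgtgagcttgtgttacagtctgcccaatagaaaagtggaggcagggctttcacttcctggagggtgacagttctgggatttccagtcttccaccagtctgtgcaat

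In the SmartSeq2 data 273 untreated and 251 treated cells were used, those that the study lists with a sub-cluster, of 284 and 282 in the tables, with 172559865 and 149084200 counts. Cells had medians of 635257 and 599896 counts and of 861 and 850 genes, and no cell name was shared between groups. The text of the study counts slightly more untreated cells than carry a sub-cluster, and which cells these are is not given in the sources used here. All 14 listed T cell and iNKT markers were read in both groups. Markers of other cells were read mainly in the treated sample: 34 of its 251 cells and 3 of the 273 untreated cells had at least 5 reads on a marker of another cell type, 21 and 0 cells had such reads on a marker of dividing cells, and 12 and 0 cells had no T cell marker. Summed over 6 markers the macrophage and Kupffer cell list stood at 0.0174 and 1901 counts per 1000000 (CPM), almost all of it Lyz2 (0 and 1688 CPM), while Clec4f and Cd5l had no reads in either group. The 4 erythroid markers summed to 0.255 and 569 CPM, the 5 hepatocyte markers to 0 and 96.5, the 4 endothelial markers to 1.05 and 24.4, and the 5 markers of division to 0.0058 and 181. The lists for B cells, neutrophils and plasmacytoid dendritic cells, the last a major source of type I interferon, were at or near 0 in both (at most 0.0537 CPM). The part of these cells in the results was not tested. Values without them are given for the sum over the members, for the members whose call changed, and for Slfn2, Gbp2, Ifit1, Oas1a and Stat2.

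The summed level of the 37 genes was nearly the same in both samples, while single members differed in both directions. Level here is the count of a gene summed over the cells of a group, scaled to the sum over all genes of those cells (CPM). The members together reached 2350 CPM (2343 to 2358) without treatment and 2484 CPM (2476 to 2492) after it, 1.06-fold higher. Igtp alone made up 20.7% and 27.5% of that, and the other 36 summed to 1863 and 1801 CPM. When the cells with markers of other types or of division were left out the log2 ratio of the sums went from 0.08 to -0.03, and within name series 1 and 2 of the cells (below) it was 0.26 and -0.15. Reads were found for 34 members in each group. The 35 members with at least 10 counts over both groups were compared on the scale of log2(CPM + 1), which understates differences of low genes, and a member was called where the ratio passed 2-fold. Of these, 7 (20%) were higher in treated cells, beside 20.1% of all 15052 genes compared, and 9 (25.7%) were lower, beside 17.2% of all genes. Without the cells with other markers 4 were higher and 11 lower, beside 17.4% and 20.8% of all genes. Ifih1, Ifi47 and Oasl2 were then no longer called higher, and Irgm1 and Usp18 were called lower in addition. With a prior of 10 CPM in place of 1, Dhx58, Ifi47, Oas3, Stat2, Isg15, Slfn5 and Rtp4 were not called. The median log2 ratio was -0.04 over the members and 0.02 over all genes.

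**Figure D1:**
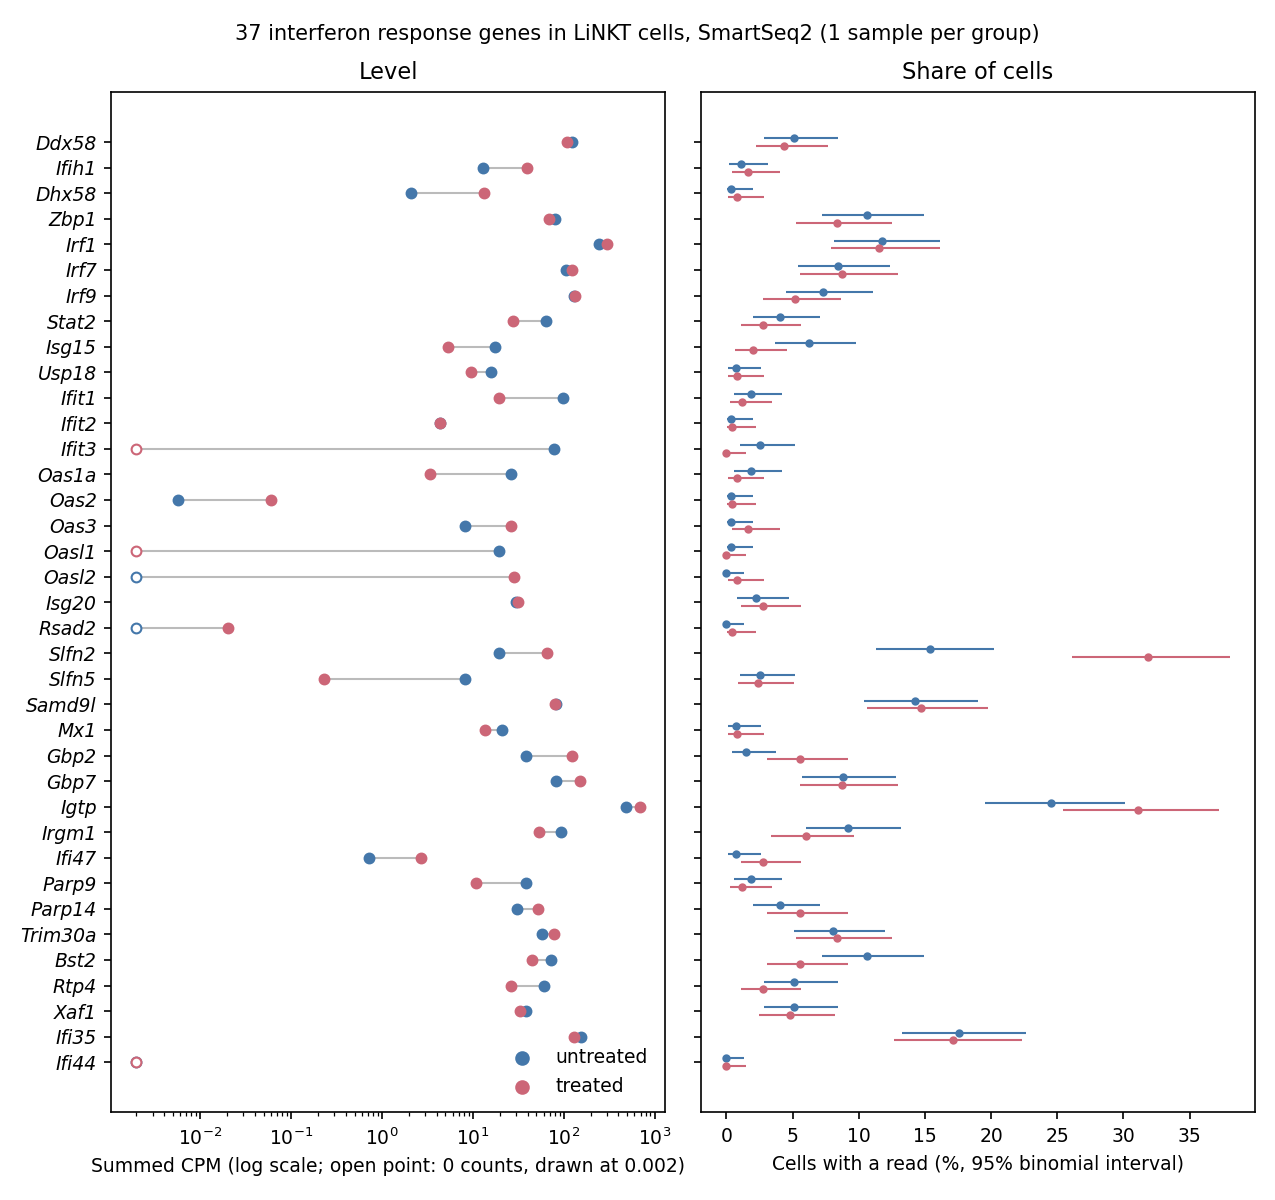
Level of each member in CPM (left, log axis, members without reads drawn open at 0.002) and share of cells with at least 1 read (right, percent with 95% exact binomial intervals), for the untreated and the treated SmartSeq2 sample, members ordered by role. Slfn2 is the only member read in 10% or more of either group's cells whose level differed by over 2-fold (19.3 and 64.7 CPM), and Igtp took the most counts of the members in both samples.

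Most of these differences rested on very few cells. The median share of cells with a read was 2.56% in untreated and 2.79% in treated cells for the members, and 2.20% and 1.99% for all genes compared. Of the 16 called members, 13 drew 50% or more of one group's counts from 1 cell, as did 19 of all 37 members. The share of all genes compared that did so was not computed, so this cannot be read as a trait of the list. Among genes read in 10% or more of either group's cells, 5.23% of 2390 were higher and 4.06% lower in treated cells, and of the 7 members that were read so widely (Igtp, Slfn2, Ifi35, Samd9l, Irf1, Zbp1 and Bst2) only Slfn2 was called, as higher.

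Slfn2, a Schlafen protein known for keeping T cells quiescent, was both widely read and called. Its level was 19.3 CPM (18.6 to 19.95) without treatment and 64.7 CPM (63.4 to 66.0) after it, which is 1.70 on the log2 scale. It was read in 42 of 273 untreated cells (15.4%, exact binomial interval 11.3 to 20.2) and in 80 of 251 treated cells (31.9%, 26.2 to 38.0), and the top cell held 7.45% and 4.86% of its counts. The intervals did not overlap, which describes the pooled cells of each group and is no test of a difference. Of the 15052 genes 21 (0.14%), itself included, had a share that was higher by as many points (16.5). Only widely read genes can rise so far, so all 21 are among the 2390 read in 10% or more of either group's cells. Their share of those genes is larger than 0.14% and was not computed. The names of the cells carry the numbers 1 or 2, whose meaning is not stated, and the difference was seen within each: 10.9% and 26.6% of the cells of name series 1, and 24.7% and 43.6% of those of name series 2. Without the cells that had markers of other types or of division it was 15.6% and 34.2%, with 19.3 and 67.1 CPM. Its neighbour in the family, Slfn1, which is no member of the list, was read in 9 and 25 cells (5.71 and 17.97 CPM). Slfn5, another Schlafen, went the other way in counts (8.23 and 0.228 CPM) but was read in 7 and 6 cells. Slfn genes resemble each other, so their reads may be split among them by the counting.

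The GTPases, which act on membranes and on vacuoles that hold microbes, held the most counts of any role: 723 and 1028 CPM over 6 members. Igtp, an immunity-related GTPase, stood at 487 CPM (484 to 490) without treatment and at 684 CPM (680 to 688) after it. It was read in 67 cells (24.5%, 19.6 to 30.1) and 78 cells (31.1%, 25.4 to 37.2), with overlapping intervals. Overlap of intervals is a description here and below, and no test of a difference. Within name series 1 the shares were 20.7% and 32.9%, and within name series 2 they stood in the opposite order, at 32.6% and 26.9%. Gbp2, a guanylate-binding protein, had 38.7 and 122 CPM and was read in 4 cells (1.47%, 0.401 to 3.71) and 14 cells (5.58%, 3.08 to 9.18), again with overlapping intervals. A single untreated cell held 71.5% of its untreated counts, and without the cells with other markers it was read in 4 and 11 cells. Gbp7 had 82.6 and 152 CPM in 24 and 22 cells, short of the 2-fold rule. Ifi47, another immunity-related GTPase, was called at low levels, 0.724 and 2.72 CPM in 2 and 7 cells, a log2 ratio of 1.11. It was not called without the cells with other markers (0.86), with a stricter filter on cells (0.94), as the mean of the CPM of each cell (0.94) or with a prior of 10 CPM (0.25). Irgm1 (93.1 and 53.5 CPM) and the antiviral Mx1 (20.9 and 13.7 CPM) were lower in CPM without passing the rule, although Irgm1 passed it without the cells with other markers (93.4 and 45.6 CPM). Exons of 15 members overlap those of another annotated gene. Those of Igtp overlap Irgm2 and those of Ifi47 overlap Olfr56 on the same strand, so reads there cannot be assigned with certainty. The same holds on the same strand for Gbp7 (Gm43802), Parp14 (Gm49730), Rtp4 (Gm45338) and Irf9 (Rnf31). Others, such as Irf7 with Phrf1, overlap on the other strand, which these libraries do not mark.

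The sensors of viral nucleic acid summed to 220 and 229 CPM. Of these 4 genes 2 were called higher, beside 20.1% of all genes, and both calls came from few cells. Ifih1 (MDA5, a sensor of long double-stranded RNA) had 13.1 and 39.1 CPM in 3 and 4 cells, and 93.7% of its untreated counts came from 1 cell. In name series 1 it was read in 2 untreated cells and in none of the treated ones, a log2 ratio of -4.38, so that its direction depended on name series 2. Without the cells with other markers it had 13.1 and 25.8 CPM in 3 and 2 cells and was not called (log2 ratio 0.93). Dhx58 (LGP2, a regulator of the other RNA sensors) had 2.09 and 13.2 CPM in 1 and 2 cells. Over all cells of the tables it had 10.8 and 11.9 CPM in 2 cells of each group and was not called (log2 ratio 0.13). Ddx58 (RIG-I, which binds RNA with a 5′ triphosphate) had 124 and 108 CPM in 14 and 11 cells. Zbp1, a sensor of Z-form nucleic acid, was read more widely, in 29 (10.6%) and 21 cells (8.37%), with 80.7 and 68.3 CPM.

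The transcription factors of the response showed no common direction and summed to 544 and 580 CPM. Irf1, which answers to both interferon types, had 242 and 295 CPM in 32 (11.7%) and 29 cells (11.6%). Irf9, which binds the ISRE together with STAT2, had 131 and 133 CPM in 20 and 13 cells, although its exons overlap those of Rnf31. Irf7, which amplifies interferon-α production, had 107 and 124 CPM in 23 and 22 cells. Stat2 was called as lower, with 64.3 and 28.0 CPM in 11 and 7 cells (log2 ratio -1.17), but fell short of the rule within name series 1 (-0.67) and with a prior of 10 CPM (-0.97). Without the cells with other markers Stat2 had 64.5 and 13.7 CPM in 11 and 4 cells.

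Isg15, a ubiquitin-like protein that is conjugated to others in the response, was called lower in treated cells and was read in fewer of them. It had 17.7 CPM (17.03 to 18.3) and 5.31 CPM (4.94 to 5.69), and was read in 17 cells (6.23%, 3.67 to 9.78) and 5 cells (1.99%, 0.650 to 4.59), shares whose intervals overlapped. Its log2 ratio of -1.56 was -0.37 within name series 2, where 2 cells of each group had reads. Usp18, the protease that removes it and damps the receptor, had 15.98 and 9.63 CPM in 2 cells of each group. Without the cells with other markers it had no treated reads and was called lower.

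The effectors that act on RNA and translation, 13 of the 37 members, gave 8 of the 16 calls, 3 higher and 5 lower, beside 20.1% and 17.2% of all genes. Among the Ifit genes, of whose products some bind viral RNA lacking proper caps, 2 were called lower. Ifit1 had 99.2 and 19.3 CPM in 5 and 3 cells, and 99.5 and 0.026 CPM in 5 and 1 cells without the cells with other markers. Ifit3 had 79.1 CPM in 7 untreated cells (2.56%, 1.04 to 5.21) and no read in 251 treated cells. There 3 cells would be 1.20% and the upper limit of the exact interval is 1.46%, so that the intervals overlapped. Against a floor of 3 counts over the treated sample, Ifit3 was 3931-fold lower. Reads are not independent molecules, so this ratio is no firm bound, and 67.6% of the untreated level came from 1 cell. The near-identical Ifit3b had 9.04 and 0.0067 CPM. Ifit2 had 4.39 and 4.33 CPM in 1 cell of each group.

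The oligoadenylate synthetase family, of whose products some act to switch on RNase L, had no common direction. Each of its genes was read in at most 5 cells of a group. Oas1a was lower (26.3 and 3.41 CPM, 5 and 2 cells) and Oas3 higher (8.26 and 26.4 CPM, 1 and 4 cells). Neither was called within name series 2, where the log2 ratios were -0.43 and 0.31, and Oas3 was not called with a prior of 10 CPM (0.996). Without the cells with other markers Oas1a had no treated reads. Oasl1 had 19.2 CPM from 1 untreated cell and no treated reads, 953-fold lower against the floor. Oasl2 had no untreated reads and 28.5 CPM from 2 treated cells, 1638-fold higher against it. Both ratios rest on 1 or 2 cells and are no firm bounds. Over all cells of the tables Oasl1 had 18.5 CPM in 1 and 6.89 CPM in 2 cells, a log2 ratio of -1.30. Oasl2 had no read in either group once the cells with other markers were left out. Oas2 had 1 and 9 counts, each from 1 cell, and was not called (log2 ratio 0.08). Rsad2, which makes a chain-ending nucleotide, had 0 and 3 counts, too few to compare. The exonuclease gene Isg20 had 30.05 and 31.5 CPM in 6 and 7 cells. Samd9l, a translation inhibitor, was read widely and at like levels, 82.4 and 80.0 CPM in 14.3% and 14.7% of cells.

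The remaining 8 members summed to 454 and 374 CPM and held 2 calls, both lower, beside 17.2% of all genes. Parp9, an ADP-ribosyl transferase family member, had 38.8 and 10.9 CPM in 5 and 3 cells. Its exons overlap those of Dtx3l on the other strand, and these libraries do not mark strand. Rtp4, a receptor transporter protein, had 60.3 and 26.04 CPM in 14 (5.13%) and 7 cells (2.79%), a log2 ratio of -1.18. It fell just short of the rule over all cells of the tables (-0.98), within name series 1 (-0.999) and with a prior of 10 CPM (-0.96). Bst2 (tetherin, which holds budding virus at the cell surface) had 73.3 and 44.8 CPM. It was read in 29 (10.6%, 7.23 to 14.9) and 14 cells (5.58%, 3.08 to 9.18), a lower share in treated cells with intervals that overlapped. Ifi35 was at 155 and 130 CPM in 48 (17.6%) and 43 cells (17.1%). Parp14, Trim30a and Xaf1 lay between 30.8 and 78.1 CPM in both groups without passing the rule, and Ifi44 had no read in any cell used.

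Most genes of the pathway around the list were read in these cells. The 7 type I and type III ligands looked up were not, nor were Tlr3 and Tlr9, receptors that sense nucleic acid upstream of them. Mb21d1, a further upstream gene, was not found by that symbol and has no value here. Ifnb1, Ifna1, Ifna2, Ifna4, Ifnk, Ifnl2 and Ifnl3 had no reads in either group, which says nothing of other cells of the liver. Ifng, the type II interferon that iNKT cells release, had 136 and 192 CPM in 52 (19.0%) and 53 cells (21.1%). Among the 9 receptors and kinases compared, Jak2 and Ifngr2, the latter read in 1 cell, were called higher and Ifngr1 lower, beside 20.1% and 17.2% of all genes. Jak2, a kinase of the interferon-γ receptor, had 9.52 and 58.1 CPM in 6 and 16 cells. Ifngr1, the chain that binds interferon-γ, had 845 and 324 CPM in 87 cells (31.9%) and 38 cells. Without the cells with other markers Jak2 had 9.54 and 44.4 CPM and Ifngr1 847 and 358 CPM, and both calls were made as before. The type I receptor genes were not called: Ifnar1 had 86.6 and 146 CPM in 17 and 20 cells, and Ifnar2 had 102 and 64.9 CPM in 27 and 21 cells. Of 5 inhibitors compared only Ptpn2, a phosphatase that acts on JAK1, was called, as lower, beside 17.2% of all genes. Its level was 132 and 55.1 CPM in 21 and 17 cells, and 132 and 59.5 CPM without the cells with other markers. Of 8 upstream genes compared 1 was higher (Ticam1) and 1 lower (Tlr7), each from at most 2 cells per group, beside 20.1% and 17.2% of all genes. Without the cells with other markers Mavs, read in 1 untreated cell, was lower as well. Of 38 other response genes compared 12 were higher and 8 lower, beside 20.1% and 17.2% of all genes. Without the cells with other markers the order turned over, with 7 higher and 10 lower, beside 17.4% and 20.8% of all genes. The genes named here from among them were chosen after their values were seen. Dtx3l was higher, with 40.9 and 95.8 CPM in 12 and 19 cells, as was Ifitm3, which hinders the entry of virus, with 5.81 and 38.2 CPM in 2 and 9 cells. Iigp1, Gbp5 and Parp12 had no untreated reads and were read in 6, 2 and 2 treated cells. Without the cells with other markers Dtx3l (41.0 and 104 CPM) stayed past 2-fold, Ifitm3 had no treated reads left, Gbp5 was not called (log2 ratio 0.28), and Eif2ak2, which blocks translation, went from higher (5.01 and 12.7 CPM) to lower (5.03 and 0.458 CPM). Mx2 and Cmpk2 each had reads in 3 untreated cells and in no treated cell, and Ly6a, the most widely read of them in untreated cells, had 1368 and 779 CPM in 158 and 92 cells, and 1367 and 879 CPM without the cells with other markers, short of 2-fold in both.

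The number of members read per cell was alike in both samples, apart from the cells with the most members. Member CPM per cell was less alike, with a median of 1089 in untreated and 1855 in treated cells. The lower quartiles were 7.15 and 169 CPM and the upper ones 3265 and 3857 CPM, and the highest cells had 40361 and 10934 CPM. At least 1 member was read in 213 of 273 untreated cells (78.0%, 72.6 to 82.8) and in 211 of 251 treated cells (84.1%, 78.9 to 88.4). With each cell thinned to 100000 counts, which left out 3 cells per group, these shares were 75.9% and 81.9%, and those of Slfn2 13.7% and 31.0%, of Igtp 18.9% and 26.6%, of Isg15 5.56% and 2.02%, and of Gbp2 0.741% and 5.24%. Cells had a mean of 1.956 and 2.04 members and a median of 1 and 2. A count of 10 or more members was reached in 3 untreated cells (1.10%, 0.227 to 3.18) and in no treated cell, where 3 cells of 251 would be 1.20% and the upper limit of the exact interval is 1.46%. Among all cells of the tables the counts were 3 and 1, the treated one being a cell without a listed sub-cluster, with 11 members.

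**Figure D2:**
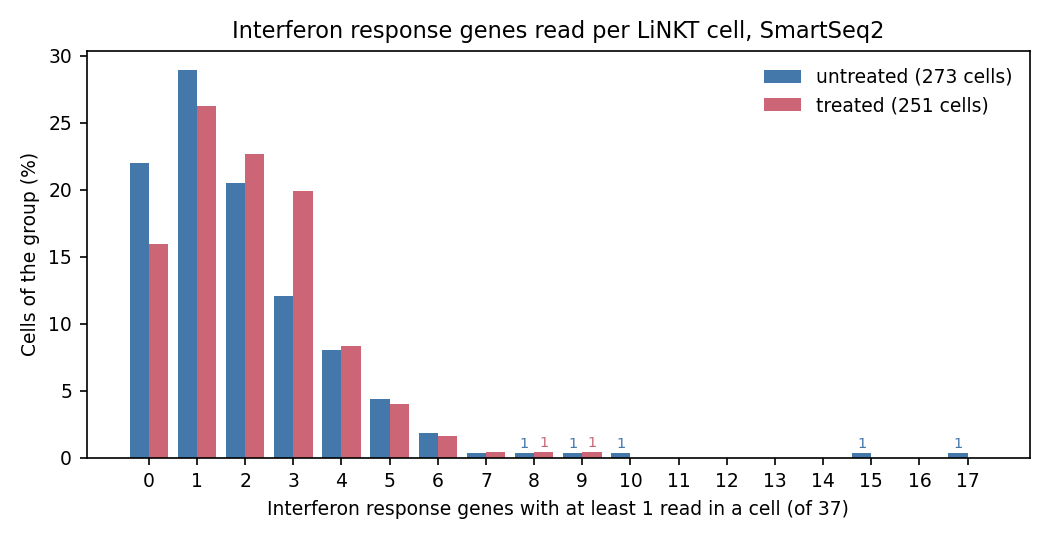
Number of the 37 members with at least 1 read in a cell (x axis) against the percent of cells (y axis), for 273 untreated and 251 treated SmartSeq2 cells. The bulk of both samples lies at 0 to 3 members, each sample has 1 cell at each of 7, 8 and 9, and 3 untreated cells lie at 10, 15 and 17.

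These 3 cells had many members of the response at once, 17, 15 and 10 of the 37, with 40361, 12862 and 17573 CPM of member counts, and 18, 15 and 12 of the 40 other response genes, where the median cell of either group had 3. Among the cells with fewer than 10 members the most other response genes read in a cell was 14 in untreated and 9 in treated cells, and 39 untreated and 37 treated cells in all had at least 6. The cell with 10 members thus lay at the end of a tail that both samples had up to 9, and those with 15 and 17 lay beyond it. All 3 were of name series 2 and of the study's sub-cluster 2, held 1107, 1341 and 684 genes, had 9, 9 and 5 of the 14 T cell markers, and had no marker of another cell type. The first held 8950 CPM of Ifit3, 6258 of Igtp, 6129 of Ifit1, 5954 of Ddx58 and 4640 of Gbp2. The second held 2842 CPM of Trim30a, 1970 of Oas3, which was all of the untreated Oas3 count, and 1727 of Ddx58. The third held 8045 CPM of Ifit1 and 7555 of Irf7. These cells gave 10.3%, 2.30% and 1.56% of the member counts of their group, and without them the untreated sum was 2044 CPM, a log2 ratio of 0.28. Ifit1 and Ifit3 stayed lower in treated cells without them, with 46.3 CPM in 3 and 25.96 CPM in 5 untreated cells, and Gbp2 had 11.2 CPM in 3 untreated cells. The cells were picked for their number of members, so their values are a description.

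Across the sub-clusters that the study assigned, Igtp and Slfn2 were read most widely in sub-cluster 5, which held treated cells only. Sub-cluster 2 had 228 untreated and 61 treated cells, sub-cluster 4 had 43 and 133, and sub-cluster 5 had 57 treated cells. These do not cover all 273 untreated cells, and the few that remain are left out here. Igtp was read in 50.9% (37.3 to 64.4) of sub-cluster 5 and had 1241 CPM there, against 23.0% to 26.3% of the cells of the other sub-clusters in either group. Slfn2 was read in 14.9% of untreated and 21.3% of treated cells of sub-cluster 2, in 18.6% and 32.3% of sub-cluster 4, and in 42.1% (29.1 to 55.9) of sub-cluster 5. Gbp2 was read in 7 of the 57 cells of sub-cluster 5 (12.3%) and in 1.32% to 4.51% of the others. Irf1 was read in 6.56%, 17.3% and 3.51% of the treated cells of sub-clusters 2, 4 and 5, and Samd9l in 8.20%, 20.3% and 8.77%. The clusters were built on the expression of these same cells, so the values are a description with no test. Of the 61 treated cells of sub-cluster 2, 19 had markers of other cell types and 12 no T cell marker. In treated sub-clusters 4 and 5, 10 and 5 cells had markers of other types and 13 and 8 had markers of division, and the part of these cells was not tested. The sub-cluster 5 cells also had more genes (median 967, against 777 to 863).

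**Figure D3:**
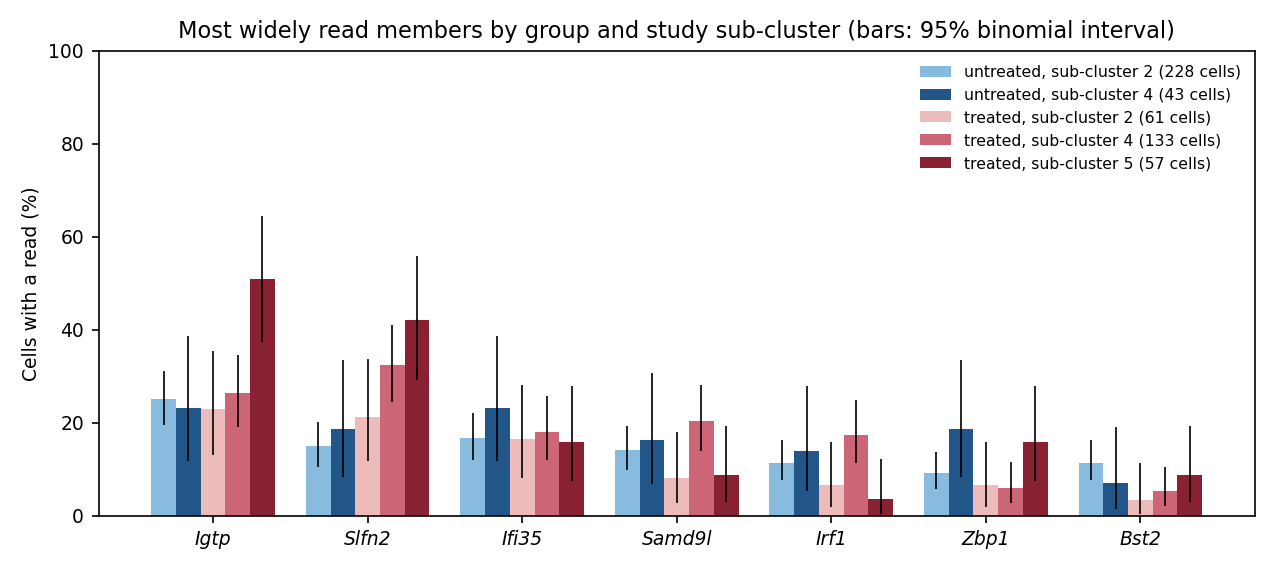
Percent of cells with at least 1 read (y axis) of the 7 most widely read members (x axis) in each sub-cluster named above and group, with 95% exact binomial intervals. Igtp and Slfn2 are highest in treated sub-cluster 5 (50.9% and 42.1%), where Irf1 is lowest (3.51%).

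DNA methylation differed near a few of the members, and most regions were less methylated after treatment. The deposited table holds 2873 CpG regions that differed between the groups, 69.0% of them lower in treated cells. Of the members, 3 had a region in the gene or within 2 kb of the TSS (8.11%, beside 6.26% of 21938 protein-coding genes), and 9 had one within 50 kb of the TSS (24.3%, beside 12.9%). The latter were 13 regions, 9 lower and 4 higher. Values are the authors' means per region, 1 for each group with no spread between replicates, and the read depth behind them is unknown. The authors selected the regions for a difference between these same groups. A shared direction of the cytosines within a region, given below, follows in part from that selection and is a description only. Ages differed between the groups and the sex of the treated mice is not given, so age and sex cannot be told apart from treatment, and in bulk DNA a change within cells cannot be told apart from a change in the mix of cells.

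Ifih1 held 3 of the regions, all in its introns and all lower, and 164 genes (0.748%) had 3 or more. Methylation was 84.9% in untreated and 48.1% in treated cells at chr2:62618982-62619387, 92.9% and 54.5% at chr2:62622962-62623329, and 92.5% and 53.2% at chr2:62626324-62626652, which lie 27026, 23066 and 19723 bases downstream of the TSS. In the middle region all 22 CpG cytosines (counted on both strands) were lower, with a mean change of -37.3 points ± 6.24 (SD, n = 22 cytosines), in the third all 17 were, and in the first 13 of 15 were. The plain mean over the cytosines of the first region was 80.3% and 53.5%, less far apart than the authors' means. Its mean change was -26.7 points ± 15.5 (SD, n = 15 cytosines). Slfn2 had 2 regions before its TSS, neither in a gene, and had the nearest protein-coding TSS to both. At chr11:83043831-83044479, whose centre lay at -20957 bases from the TSS, methylation was 85.3% and 25.6%, and all 18 CpG cytosines were lower, with a mean change of -61.3 points ± 13.2 (SD, n = 18 cytosines). At chr11:83060209-83060722, centred at -4646 bases, it was 70.7% and 23.2%, and all 17 cytosines were lower. The stretches of 300 bases with the most CpG sites in the middle Ifih1 region (chr2:62623030-62623329) and in the 2 Slfn2 regions (chr11:83043831-83044130 and chr11:83060259-83060558) are printed on the plus strand of GRCm38, with CpG sites in capitals, because Ifih1 and Slfn2 are the members with more than 1 region of lower methylation and every CpG cytosine measured in these 3 regions was lower in treated cells. The same was true of every cytosine in the third Ifih1 region and in the less methylated regions near Ifi47, Stat2, Gbp7 and Xaf1.
Ifih1 intron: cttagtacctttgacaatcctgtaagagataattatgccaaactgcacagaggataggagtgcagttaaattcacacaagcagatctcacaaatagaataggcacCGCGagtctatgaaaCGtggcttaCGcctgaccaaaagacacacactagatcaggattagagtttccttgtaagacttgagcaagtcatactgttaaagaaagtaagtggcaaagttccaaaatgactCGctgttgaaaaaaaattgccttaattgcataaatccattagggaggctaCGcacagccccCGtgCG
Slfn2, distal: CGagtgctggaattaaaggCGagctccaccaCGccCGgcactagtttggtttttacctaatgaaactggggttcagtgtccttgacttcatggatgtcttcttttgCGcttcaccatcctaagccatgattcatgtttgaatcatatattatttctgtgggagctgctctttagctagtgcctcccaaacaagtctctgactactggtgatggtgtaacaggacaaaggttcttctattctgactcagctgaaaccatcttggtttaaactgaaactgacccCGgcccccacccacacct
Slfn2, proximal: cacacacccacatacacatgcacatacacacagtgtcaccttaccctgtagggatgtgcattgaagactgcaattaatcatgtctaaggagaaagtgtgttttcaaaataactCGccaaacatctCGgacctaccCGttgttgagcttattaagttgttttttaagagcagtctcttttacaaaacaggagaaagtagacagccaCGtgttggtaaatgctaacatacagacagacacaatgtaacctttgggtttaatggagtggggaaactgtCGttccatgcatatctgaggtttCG

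The other regions were single or lay in neighbouring genes. In an intron of Ifi47, which overlaps Olfr56 there, methylation was low in both and lower in treated cells, 15.1% and 3.07% at chr11:49090735-49091084. Rtp4 went the other way: in an intronic region of 1535 bases, centred 1435 bases downstream of its TSS (chr16:23610587-23612121), methylation was 22.2% and 44.7%, and all 30 CpG cytosines were higher, by 18.9 points ± 12.6 (SD, n = 30 cytosines). The RNA of Rtp4, given above, was called lower from 14 and 7 cells, a call that was lost under 3 of the alternatives. Upstream of Stat2, at chr10:128256428-128256634, it was 92.5% and 45.2%, nearest to the TSS of Apon. The region within 50 kb of Gbp7 (89.0% and 58.9%) lay in a coding exon of Gbp3, that of Usp18 (9.72% and 36.5%) in Tuba8, that of Ifi35 (48.3% and 72.2%) in an exon of Rundc1, and one of the 2 of Xaf1 (16.95% and 27.3%) in an exon of Fbxo39. The other Xaf1 region, 40690 bases downstream of its TSS, had 68.4% and 18.4%.

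**Figure D4:**
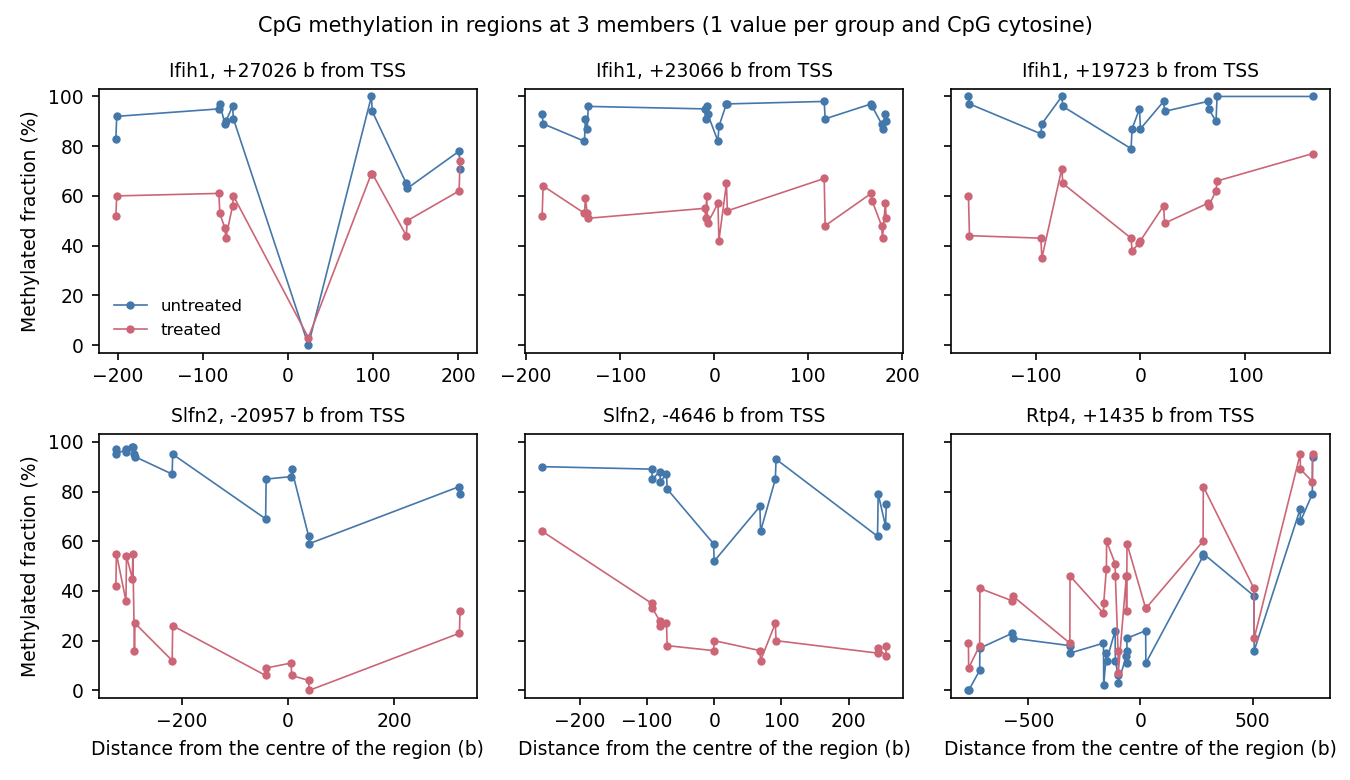
Methylation of single CpG cytosines (percent, y axis) against the distance from the centre of the region in bases (x axis), for the regions of Ifih1, Slfn2 and Rtp4, untreated and treated, 1 value per group. In the Slfn2 regions every cytosine is lower in treated cells, and in the Rtp4 region every cytosine is higher.

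Open chromatin was read from the multiome fragments, which hold both groups in 1 file. Barcodes end in 1 or 2, and no source used here assigns an ending to a group, so the values below compare 2 pools and not the treatment. Counting barcodes with at least 1000 fragments there were 8565 and 7237 barcodes, with 162696748 and 149628466 insertions of the transposase, and 100 barcode sequences occurred in both pools (1.17% and 1.38%). Within 2 kb of their TSS the members summed to 1175 (1169 to 1180) and 1121 (1116 to 1127) insertions per 1000000 insertions of the pool (IPM), a ratio of 0.955. Most of their promoters were open in both: the median level was 29.3 and 29.1 IPM, beside 19.7 and 19.996 over all 18046 promoters, and 30 of the 37 lay above the median of all. The ratio was within 1.25-fold for 31 of the 37. Only Ifi44 was at least 1.5-fold higher in ending 2 (0.111 and 0.354 IPM, in a promoter that is nearly closed), beside 11.6% of all promoters. Oas2 (2.93 and 1.70) and Rtp4 (18.2 and 11.6) were at least 1.5-fold higher in ending 1, beside 2.46%. The promoter of Oas2 was nearly closed in both pools and that of Rtp4 was open. Oasl1 (33.0 and 22.3) and Slfn5 (29.3 and 21.5) came next, with ratios of 0.676 and 0.733. The 3 most alike were Irf9, Ddx58 and Oas1a, with ratios of 1.02, 0.975 and 0.973, the last at a low level (1.79 and 1.74 IPM). The promoter of Slfn2 had 25.9 and 32.2 IPM, a ratio of 1.24, and that of Igtp 19.1 and 21.2.

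Several of the differentially methylated regions had larger ratios between the pools than the promoters did, but the 2 measures are unlike. Promoters were counted over 2 kb on either side of a TSS and regions over their own shorter length. The regions had also been selected for a difference in methylation, and the promoters had not. The Ifih1 regions had 14 and 411, 8 and 275, and 16 and 111 insertions in endings 1 and 2, or 31.9-fold, 37.4-fold and 7.54-fold more IPM in ending 2. The distal Slfn2 region, printed above in part, had 44 and 1011 insertions (0.270 and 6.76 IPM, 24.98-fold), and the proximal one 66 and 543 (0.406 and 3.63 IPM, 8.95-fold). Of the 9 member regions that were less methylated in treated cells, 8 were at least 1.5-fold higher in ending 2, beside 85.5% of 1812 such regions across the genome with a median of 4.08-fold. The member that was not was Ifi47, at 0.811. Of the 4 regions that were more methylated, only that of Ifi35 was at least 1.5-fold higher in ending 1 (2.94 and 0.588 IPM), beside 60% of 849, with Rtp4 at a ratio of 0.699 and Usp18 at 0.818. The more methylated Xaf1 region went the other way and was 1.88-fold higher in ending 2, from 15 and 26 insertions, beside 4.36% of the 849.

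**Figure D5:**
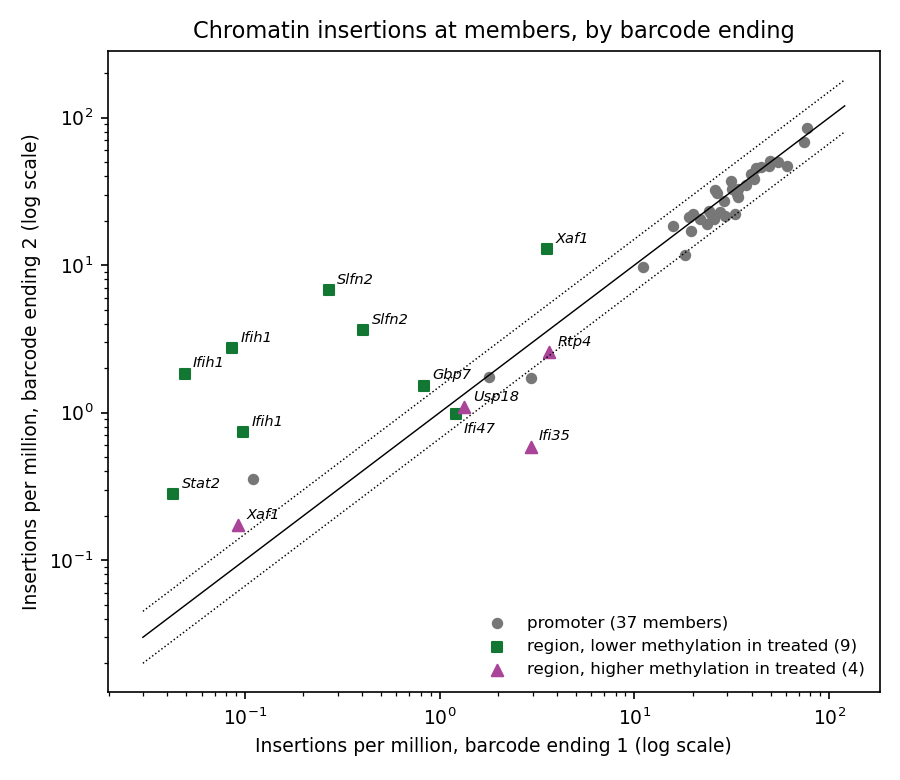
IPM in barcode ending 1 (x axis, log) and ending 2 (y axis, log) for the 37 member promoters (circles) and for the 13 differentially methylated regions near members (squares lower, triangles higher methylation in treated cells), with solid and dotted lines at equal values and at 1.5-fold. Most promoters lie close to the line of equal values, while the Ifih1 and Slfn2 regions lie 7.54-fold to 37.4-fold above it.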

How the data were processed

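SmartSeq2 single-cell RNA, bisulfite and multiome ATAC files of LiNKT cells were used, with 1 sample per group in each. The deposited SmartSeq2 tables hold raw read counts per gene and cell, which the authors made with STAR alignment to GRCm38. They were summed over the 524 cells that the study lists with a sub-cluster, as CPM over all genes, with an exact Poisson interval. Shares of cells have exact Clopper-Pearson intervals. Each SmartSeq2 well received 1 sorted cell and no doublet caller was run. Library depth was 172559865 and 149084200 counts. The names of cells tie no cell to a mouse. 0 columns of values belonged to no sample of the series.

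The deposited bisulfite tables hold methylation fractions per cytosine and per region, 1 value per group, made by the authors with BSMAP on mm10 and metilene. CpG cytosines were counted on both strands. Deposited q-values (at most 0.05) were used only to select regions for the alternatives. The authors' score column, the difference of the 2 means of a region, was not used. The 2 mean columns name no group, and the group of each was checked against the deposited sites. The depth is unknown, so no interval was given. The deposited multiome fragments (Cell Ranger ARC) hold read-pair counts per fragment. Both ends of each fragment were counted as insertions, as deposited, in barcodes with at least 1000 fragments, and no doublet caller was run.

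Gene positions came from GENCODE M21 and promoter sequence from RefSeq (GRCm38.p6). A promoter was the 2 kb on either side of a TSS. Members called were those past 2-fold on the log2(CPM + 1) scale with at least 10 counts in all, and 1.5-fold was used between barcode endings. Named in full were members past 2-fold, the 5 with most CPM, those with a methylation region and the 5 promoters that differed most and the 3 that differed least between endings. The members and gene lists were chosen with earlier results of these data known. Python 3.11.15, numpy 2.4.6, pandas 2.3.3, scipy 1.17.1, pysam 0.24.0, matplotlib 3.10.9, bedtools 2.31.1 and samtools 1.23.1 were used, and the calculations were tested on simulated data. Bulk ATAC-seq, ChIP-seq and 10X RNA files were not used here.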

Additional observations from a re-analysis of the deposited data

How the results depend on the processing

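No paired analysis was possible because each assay used here has 1 sample per group, and replicate numbers are shared only by bulk ATAC-seq samples, which were not used. The log2 ratio of the summed CPM of the members (0.08) had no stable direction. It was 0.11 with all cells of the tables, 0.0903 as the mean of the CPM of each cell, 0.26 in cells of name series 1, -0.15 in those of name series 2, 0.20 without the cell with most member counts in each group and 0.0560 outside the 10 most abundant genes. In alternatives chosen after seeing the data, without the cells with 10 or more members it was 0.28 and without cells with markers of other types or of division it was -0.0275. Of the 7 members called higher and 9 called lower, 4 and 5 were called with a prior of 10 CPM, beside 8.52% and 7.33% of all genes, and without the cells with other markers 4 and 11, beside 17.4% and 20.8%. Of 172 values of the 16 called members under the alternatives, 153 stayed past 2-fold in the same direction, 18 fell short of it and 1 turned, Ifih1 in name series 1 (-4.38). Some of the 153 could not fall short, because a prior of 0.1 CPM in place of 1 can only enlarge a ratio. Median ratio scaling hardly moved the values (Slfn2 from 1.696 to 1.6958). The count of 153 therefore overstates how stable the calls were. In 4 further cases, for Oasl1, Oasl2 and Dhx58, too few reads were left for a value. Gbp2, Ifit1, Ifit3, Parp9 and Slfn2 had a value and passed 2-fold under every alternative that was run, Slfn2 between 1.11 and 2.13 on the log2 scale. Members with a methylation region numbered 3, or 9 within 50 kb. The log2 ratio of promoter insertions between barcode endings (-0.07) was -0.0842 with no minimum of fragments, -0.0788 within 500 b of the TSS and -0.11 for fragments under 150 b, where 1 member in place of 3 passed 1.5-fold. The causes were not tested. With 1 sample per group the spread between mice is unknown.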
